A study of Homo sapiens with 40 samples.

Results

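Human microglia-like cells with a homozygous missense edit in an Alzheimer's disease risk gene, either TREM2-R47H or SORL1-A528T, were compared directly with each other. The comparison took the 7 TREM2-R47H and 7 SORL1-A528T libraries, 14 of the 40 in the series, and no line was tested against unedited cells. It used the 13365 of 60504 deposited genes that reached 1 TPM in 7 or more of the 14 libraries. TPM is the share of a transcript among all transcripts of a library, corrected for transcript length, on a fixed total. The other 26 libraries are of unedited WT cells, TREM2-KO, SORL1-KO, CD33-SNP and INPP5D-SNP.

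Both lines are clones of H9, an established line of human embryonic stem cells, isolated by sorting after CRISPR/Cas9 editing. TREM2-R47H cells are homozygous for an arginine-to-histidine change at residue 47 of TREM2, and SORL1-A528T cells for the alanine-to-threonine change A528T of SORL1. The labels name no other edit in either line, apart from GFP reporter lines made for imaging, TREM2-R47H among them, which they do not tie to these libraries. The number of clones behind each line is not stated, so an edit and the history of a clone cannot be told apart. Blood progenitors were collected on day 11 and grown into microglia-like cells over 28 days. The medium held M-CSF at 25 ng/mL, IL-34 at 100 ng/mL and TGF-beta 1 at 50 ng/mL, and CX3CL1 and CD200, at 100 ng/mL, were present for the last 3 days. Nothing in the labels says whether the libraries of a line are separate cultures, so p-values rest on a spread between libraries that may be technical.

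TREM2 is a receptor on the microglial surface that binds lipids and lipoproteins, APOE among them, and signals through the adaptor TYROBP to kinases that drive phagocytosis, lipid handling and survival. SORL1 is a sorting receptor that works with the retromer complex to move cargo such as the amyloid precursor protein out of endosomes, and so bears on what reaches the lysosome. Both therefore touch uptake and degradation by microglia from different ends of the endocytic route, which is the question that a direct comparison addresses.

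The edited codons are shown first because they define the lines. Each stretch is reference coding sequence of a GENCODE 29 transcript (GRCh38), 5′ to 3′ on the coding strand, with the codon of the edited residue in capitals and 10 codons on each side. The TREM2 codon lies in exon 2 at chr6:41161513-41161515 on the minus strand, and its stretch spans chr6:41161483-41161545. The SORL1 codon lies in exon 11 at chr11:121522975-121522977 on the plus strand, and its stretch is spliced and crosses into the next exon. The edited alleles themselves were not read here.
TREM2 R47H codon: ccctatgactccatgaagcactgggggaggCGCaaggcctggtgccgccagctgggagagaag
SORL1 A528T codon: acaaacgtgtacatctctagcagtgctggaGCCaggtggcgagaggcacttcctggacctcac

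A further sequence is shown because the genes on both sides of it were near 0 in all TREM2-R47H libraries. It is the gap between PUS7L, on the minus strand, and IRAK4, on the plus strand, which start back to back on chromosome 12. The plus strand of chr12:43758818-43758943 is given from the RefSeq-based promoter table (GRCh38.p14), with each CG dinucleotide in capitals.
PUS7L to IRAK4 gap: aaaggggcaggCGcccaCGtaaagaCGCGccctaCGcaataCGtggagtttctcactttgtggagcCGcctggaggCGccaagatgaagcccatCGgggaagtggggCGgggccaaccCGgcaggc
The 126 bases hold 11 CG dinucleotides. The 300-base window from 43758701 to 43759000 in the promoter table holds 28, and 26.2% of the 35116 promoters in that table hold as many (median 14). These counts describe the reference sequence only, since no methylation or editing data of this region were used.

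Libraries within a line were not equally alike. Between 13208 and 14043 genes reached 1 TPM in each of the 14 libraries, and read depth is unknown from TPM. SORL1-A528T library 7 stood apart, with a median Spearman correlation of 0.9367 with the rest of its line against 0.9618 to 0.9783 for every other library. Libraries 5 and 6 of each line were close to each other, with a standard deviation of log2 differences over genes of 0.316 in TREM2-R47H and 0.319 in SORL1-A528T. TREM2-R47H libraries 1, 2, 3 and 7 were also close (0.296 to 0.379), and lay farther from libraries 4, 5 and 6 (0.486 to 0.604). The labels name no batch, so values for libraries 1 to 3 and for libraries 4 to 6 are given where they differ from the whole. The 19 markers of the microglia list summed to 5818 to 8423 TPM in TREM2-R47H and 7022 to 11380 TPM in SORL1-A528T, although SALL1 was under 1 TPM in every library. TYROBP alone averaged 1379 and 1837 TPM, so the sum does not show that each marker was abundant.

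TREM2 RNA did not differ detectably between the lines, and SORL1 RNA was higher in TREM2-R47H in the test of single genes but not over all genes. TREM2 (ENSG00000095970, chromosome 6, 41158506 to 41163186) lay between 391 and 646 TPM (median 451) in TREM2-R47H and between 356 and 688 TPM (median 527) in SORL1-A528T. Its difference, TREM2-R47H minus SORL1-A528T on the log2(TPM + 1) scale, was -0.13 ± 0.16 (SE; limma adjusted p = 0.693), and the ranges overlapped almost wholly. SORL1 (ENSG00000137642, chromosome 11, 121452203 to 121633693) lay between 52.1 and 80.2 TPM (median 56.1) in TREM2-R47H and between 22.1 and 60.7 TPM (median 41.4) in SORL1-A528T. Its mean was 58.7 ± 9.82 TPM in TREM2-R47H and 39.9 ± 13.7 TPM in SORL1-A528T (SD, n = 7 each), against 33.3 TPM in WT. All SORL1-A528T libraries but library 7 lay below every TREM2-R47H library. The difference of 0.61 ± 0.20 (SE; limma adjusted p = 0.0981) did not pass over all genes, whereas the exact permutation test over 3432 splits gave p = 0.00641 (two-sided, 0.0321 adjusted over 5 genes). Without SORL1-A528T library 7, the highest of its line, the difference was 0.72 (limma adjusted p = 0.0357).

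TYROBP, the adaptor that carries the TREM2 signal, lay between 1216 and 1624 TPM (median 1369) in TREM2-R47H and between 1473 and 2758 TPM (median 1722) in SORL1-A528T. The low end belonged to TREM2-R47H and 6 of its 7 libraries were under the lowest SORL1-A528T library, but the difference of -0.39 ± 0.12 (SE; limma adjusted p = 0.0904) missed the threshold. APOE, the lipid carrier that TREM2 binds, lay between 3243 and 5840 TPM (median 4158) in TREM2-R47H and between 2468 and 4830 TPM (median 4092) in SORL1-A528T. Its difference was 0.17 ± 0.17 (SE; limma adjusted p = 0.642), with an exact permutation p of 0.389. All libraries of both lines lay above the WT median of 2434 TPM, and the ranges of the lines overlapped. WT itself ranged from 1744 to 4615 TPM and so overlapped both lines. WT values are printed here for orientation and were not tested, because both lines would share the same WT libraries.

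**Figure D1:**
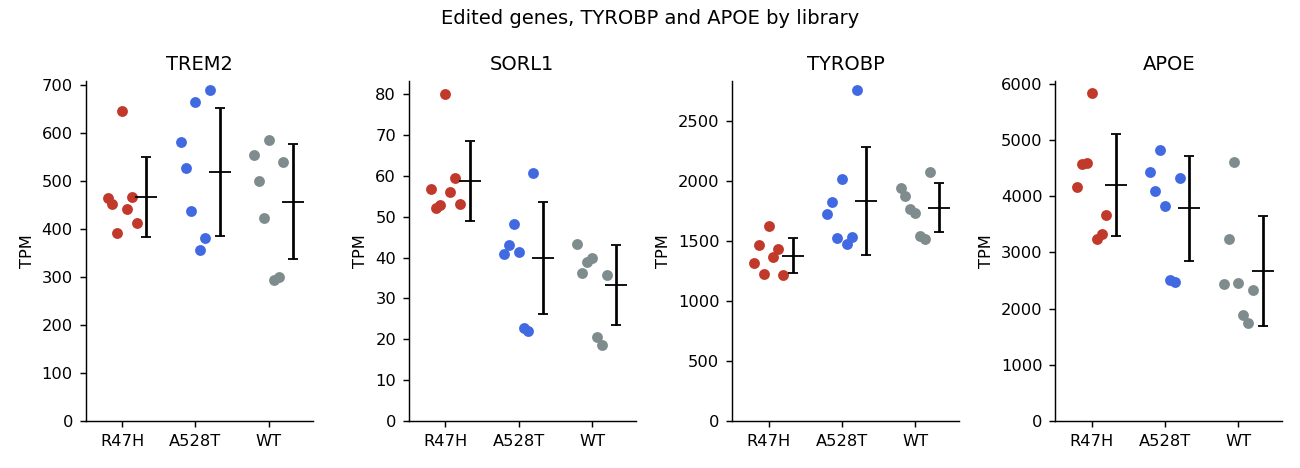
TPM of TREM2, SORL1, TYROBP and APOE in each library of TREM2-R47H, SORL1-A528T and unedited WT (points, 7 libraries a group), with the mean and its standard deviation as the bar and whiskers. SORL1 was at 52.1 to 80.2 TPM in TREM2-R47H and 22.1 to 60.7 TPM in SORL1-A528T, while the TREM2 and APOE ranges of the lines overlapped.

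CD33, an inhibitory sialic acid receptor, and INPP5D, a lipid phosphatase downstream of such receptors, are edited in other lines of the series but not here. CD33 lay between 38.4 and 52.7 TPM (median 48.0) in TREM2-R47H and between 25.1 and 63.4 TPM (median 61.9) in SORL1-A528T. Its lowest SORL1-A528T value was again library 7, and without it the difference moved from -0.21 (limma adjusted p = 0.556) to -0.39 (limma adjusted p = 0.00672). INPP5D was at 103 ± 17.6 TPM in TREM2-R47H and 120.5 ± 12.5 TPM in SORL1-A528T (SD, n = 7 each; -0.24 ± 0.10, SE; limma adjusted p = 0.221; exact permutation p = 0.0437, or 0.109 adjusted over 5).

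Across the transcriptome, called genes were lower in TREM2-R47H more often than higher. With limma and Benjamini-Hochberg adjustment over all kept genes, 618 of 13365 were called at an adjusted p below 0.05, which is 4.62 percent. Of them, 137 (1.03 percent of kept genes) were higher in TREM2-R47H and 481 (3.6 percent) were lower, and the median difference over all kept genes was -0.04. Differences of at least 2-fold were found in 88 called genes, 10 higher and 78 lower. Ranges of the 7 and 7 libraries did not overlap for 2.09 percent of kept genes, 0.419 percent in the direction of higher and 1.67 percent in the direction of lower. The split of the calls moved with the scaling between libraries: median-ratio scaling called 199 higher and 297 lower, and quantile normalization 127 higher and 263 lower. The median difference over all kept genes changed sign, to 0.0152 with median-ratio scaling and 0.0177 with quantile normalization. The lean of all kept genes below 0 therefore depended on the scaling. Without TREM2-R47H library 3 the calls fell to 304, and without TREM2-R47H library 4 they were 884. Without SORL1-A528T library 7, which stood apart, 657 genes were called (145 higher, 512 lower). The fit counts the closely alike libraries 5 and 6 of each line as separate. Averaging them, a choice made after the data were seen, left 255 calls (40 higher, 215 lower). TREM2-R47H libraries 1, 2, 3 and 7 still counted as separate there, although 1 and 7 were closer (0.296) than 5 and 6 (0.316).

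**Figure D2:**
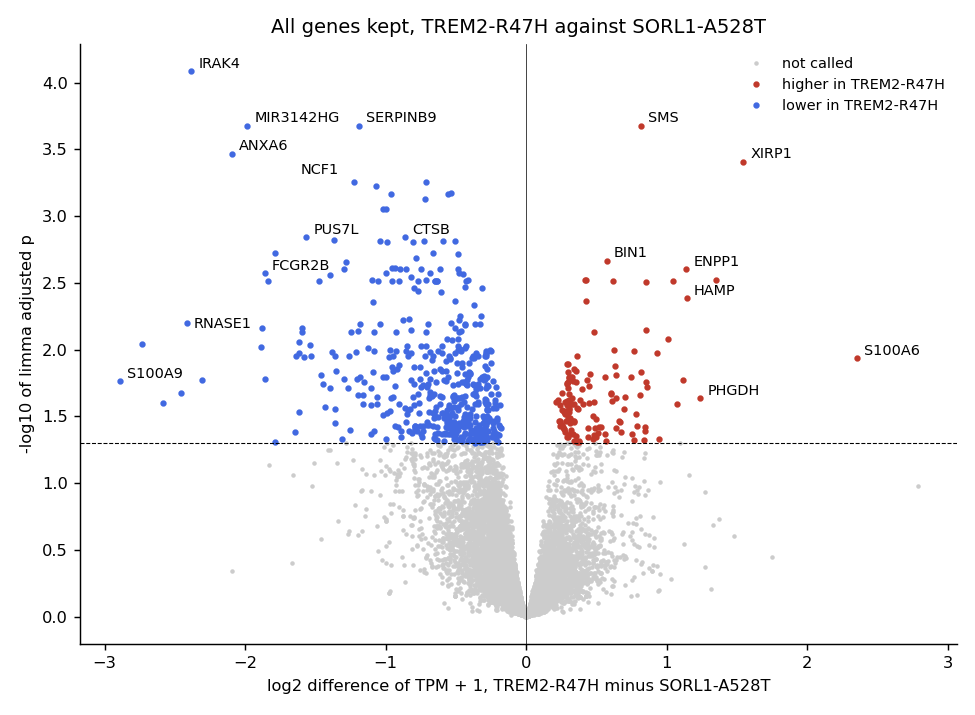
Each point is 1 of the 13365 kept genes, with its log2(TPM + 1) difference, TREM2-R47H minus SORL1-A528T, on the x axis and the -log10 of its limma adjusted p on the y axis. The 481 calls on the left outnumber the 137 on the right, and IRAK4 is the highest point.

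IRAK4, the kinase that carries signals from Toll-like and interleukin-1 receptors towards NF-kB, had the lowest adjusted p of all kept genes. IRAK4 (ENSG00000198001, chromosome 12, 43758944 to 43789543) lay between 0 and 0.21 TPM (median 0.12) in TREM2-R47H and between 2.45 and 8.66 TPM (median 4.97) in SORL1-A528T. No TREM2-R47H library came near the SORL1-A528T range, and WT lay at 4.87 to 7.38 TPM. The difference was -2.39 ± 0.20 (SE; limma adjusted p = 8.2e-05) on the log2(TPM + 1) scale, which understates a change that ends near 0. PUS7L (ENSG00000129317, chromosome 12, 43718993 to 43758817), a member of the pseudouridine synthase family encoded on the opposite strand, lay between 0 and 0.13 TPM (median 0.02) in TREM2-R47H and between 1.11 and 4.49 TPM (median 1.7) in SORL1-A528T. It too was near 0 in every TREM2-R47H library and above 1 TPM in every library of the other groups, and its difference was -1.57 ± 0.21 (SE; limma adjusted p = 0.00144). PUS7L and TWF1 were chosen after their values were seen.

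The next kept genes on the IRAK4 side did not share this loss, and no gene beyond PUS7L on the other side was examined. TWF1, an actin-binding protein whose gene lies 4180 bases from IRAK4, was at 24.9 ± 3.54 TPM in TREM2-R47H and 27.9 ± 1.64 TPM in SORL1-A528T (SD, n = 7 each; -0.17 ± 0.08, SE; limma adjusted p = 0.298). TMEM117, 46424 bases from IRAK4, had 4.59 and 3.84 TPM on average (difference 0.24, limma adjusted p = 0.52). The calls of IRAK4 and PUS7L held in all 29 alternative fits that kept these genes. Whether the loss belongs to the edit, to a clone or to the locus was not tested.

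**Figure D3:**
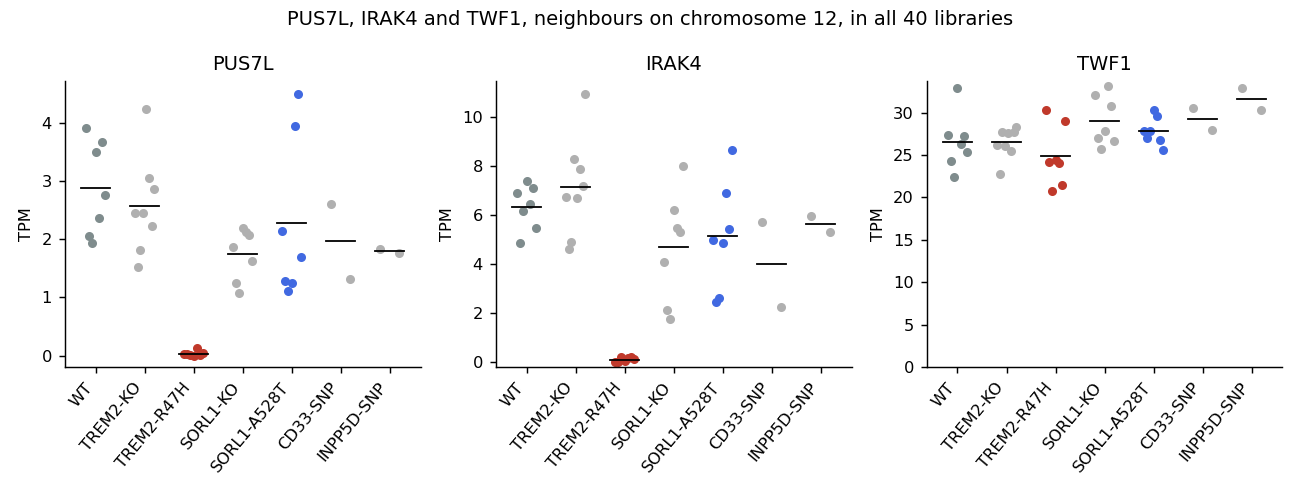
TPM of PUS7L, IRAK4 and TWF1 in each library of the 7 groups of the series (points, with the group mean as a bar). IRAK4 was at or under 0.21 TPM and PUS7L at or under 0.13 TPM in the 7 TREM2-R47H libraries and above 1 TPM in every library of the other groups, whereas TWF1 was present in all.

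Of the 29 kept genes of the Toll-like receptor list, 4 were called lower and none higher, against 3.6 percent and 1.03 percent of all kept genes. The median difference was -0.17, and -0.04 for all genes. IRAK3, a negative regulator of the same pathway, lay between 6.41 and 10.6 TPM (median 8.6) in TREM2-R47H and between 12.5 and 34.2 TPM (median 21.7) in SORL1-A528T, without overlap (-1.09 ± 0.20, SE; limma adjusted p = 0.00738). TLR2, a receptor for bacterial lipoproteins, was also lower, with a difference of -0.93 ± 0.20 (SE; limma adjusted p = 0.0188), and so was IKBKG, the regulatory subunit of the IkB kinase (-0.28 ± 0.07, SE; limma adjusted p = 0.0313). IKBKG has a near-identical pseudogene, so its reads may be split. The call of IKBKG was lost in 13 of 30 alternative fits and that of TLR2 in 4, with adjusted p up to 0.23 and 0.143. The number of members called lower ranged from 3 to 9 when single libraries were left out, with 9 without TREM2-R47H library 4.

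Several called genes lay lower in TREM2-R47H by a wide margin. RNASE1, a secreted ribonuclease, lay between 6.4 and 19.5 TPM (median 11.6) in TREM2-R47H and between 27.9 and 301 TPM (median 68.4) in SORL1-A528T (-2.42 ± 0.42, SE; limma adjusted p = 0.00629). ANXA6, a calcium-dependent membrane-binding annexin, lay between 6.25 and 12.4 TPM (median 9.75) in TREM2-R47H and between 23.8 and 60.2 TPM (median 46.7) in SORL1-A528T (-2.10 ± 0.22, SE; limma adjusted p = 3.4e-04). MIR3142HG, the host transcript of an NF-kB-induced microRNA, lay between 0.89 and 1.59 TPM (median 1.06) in TREM2-R47H and between 4.72 and 15.5 TPM (median 7.78) in SORL1-A528T (-1.99 ± 0.20, SE; limma adjusted p = 2.1e-04). Absence of overlap between the lines was a condition of choice for these genes, and SORL1-A528T library 7 was the highest of all 14 for RNASE1.

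FUCA1, the lysosomal alpha-fucosidase, lay between 42.4 and 103 TPM (median 62.0) in TREM2-R47H and between 107 and 585 TPM (median 189) in SORL1-A528T (-1.58 ± 0.31, SE; limma adjusted p = 0.0114). IRF4, a transcription factor of myeloid and lymphoid cells, lay between 2.05 and 7.04 TPM (median 3.12) in TREM2-R47H and between 7.97 and 43.8 TPM (median 10.8) in SORL1-A528T (-1.62 ± 0.31, SE; limma adjusted p = 0.0106). In both genes the highest SORL1-A528T value was that of library 7, which stood apart. TRPV4, a calcium-permeable channel, lay between 1.34 and 2.66 TPM (median 2.43) in TREM2-R47H and between 3.24 and 16.8 TPM (median 7.45) in SORL1-A528T (-1.54 ± 0.29, SE; limma adjusted p = 0.00929). C1orf162, a membrane protein of myeloid cells, differed by -1.47 ± 0.23 (SE; limma adjusted p = 0.00307). For FUCA1, IRF4, TRPV4 and C1orf162, absence of overlap between the lines was a condition of choice. SERPINB9, an inhibitor of granzyme B chosen after its values were seen, lay between 4.82 and 7.82 TPM (median 6.18) in TREM2-R47H and between 11.6 and 19.6 TPM (median 14.9) in SORL1-A528T (-1.19 ± 0.12, SE; limma adjusted p = 2.1e-04).

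Fewer genes were far higher in TREM2-R47H, and several of them encode enzymes. SMS, ENPP1, GUCY1A1 and HAMP were chosen for large differences without overlap between the lines. SMS, spermine synthase of the polyamine pathway, lay between 156 and 207 TPM (median 190.5) in TREM2-R47H and between 86.3 and 114 TPM (median 105) in SORL1-A528T. The SMS difference was 0.82 ± 0.08 (SE; limma adjusted p = 2.1e-04), the lowest adjusted p of all genes higher in TREM2-R47H. WT lay at 80.3 to 114 TPM for SMS, within or near the SORL1-A528T range. SORL1-KO lay at 155 to 207 TPM, near the TREM2-R47H range, so the higher level was not particular to TREM2-R47H. ENPP1, an ectoenzyme that hydrolyses ATP and cyclic GMP-AMP, lay between 7.37 and 13.9 TPM (median 11.0) in TREM2-R47H and between 2.84 and 7.26 TPM (median 3.85) in SORL1-A528T (1.14 ± 0.17, SE; limma adjusted p = 0.0025). GUCY1A1, a subunit of the nitric oxide receptor guanylate cyclase, lay between 7.43 and 16.0 TPM (median 9.92) in TREM2-R47H and between 3.06 and 6.58 TPM (median 4.49) in SORL1-A528T (1.05 ± 0.17, SE; limma adjusted p = 0.00307). HAMP, which encodes the iron hormone hepcidin, lay between 10.5 and 19.5 TPM (median 13.6) in TREM2-R47H and between 2.92 and 9.77 TPM (median 5.91) in SORL1-A528T (1.14 ± 0.19, SE; limma adjusted p = 0.00412). For HAMP, SORL1-KO lay at 8.34 to 14.2 TPM and WT at 1.56 to 7.4 TPM.

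PHGDH, the first enzyme of serine synthesis, lay between 11.7 and 19.1 TPM (median 15.6) in TREM2-R47H and between 1.29 and 9.94 TPM (median 7.52) in SORL1-A528T (1.24 ± 0.28, SE; limma adjusted p = 0.0231). Its lowest SORL1-A528T value, in library 7, was far below the rest of that line, and its call was lost in 5 of 30 alternative fits (adjusted p up to 0.0676). NPW (neuropeptide W), CTSW (a cysteine protease), NCOA7 and the histone gene H2AC25 were also higher, by 0.85, 0.82, 0.63 and 0.62 on the log2 scale (limma adjusted p = 0.0031, 0.0146, 0.01 and 0.00305). Like PHGDH, they were chosen with absence of overlap as a condition. CERCAM and the ribosomal pseudogene RPL14P1 completed the 12, at 0.48 and 0.43 (limma adjusted p = 0.00735 and 0.0169). XIRP1, an actin-binding protein known from striated muscle and chosen after its values were seen, lay between 1.96 and 5.96 TPM (median 3.91) in TREM2-R47H and between 0.32 and 1.13 TPM (median 0.63) in SORL1-A528T (1.55 ± 0.17, SE; limma adjusted p = 3.9e-04).

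**Figure D4:**
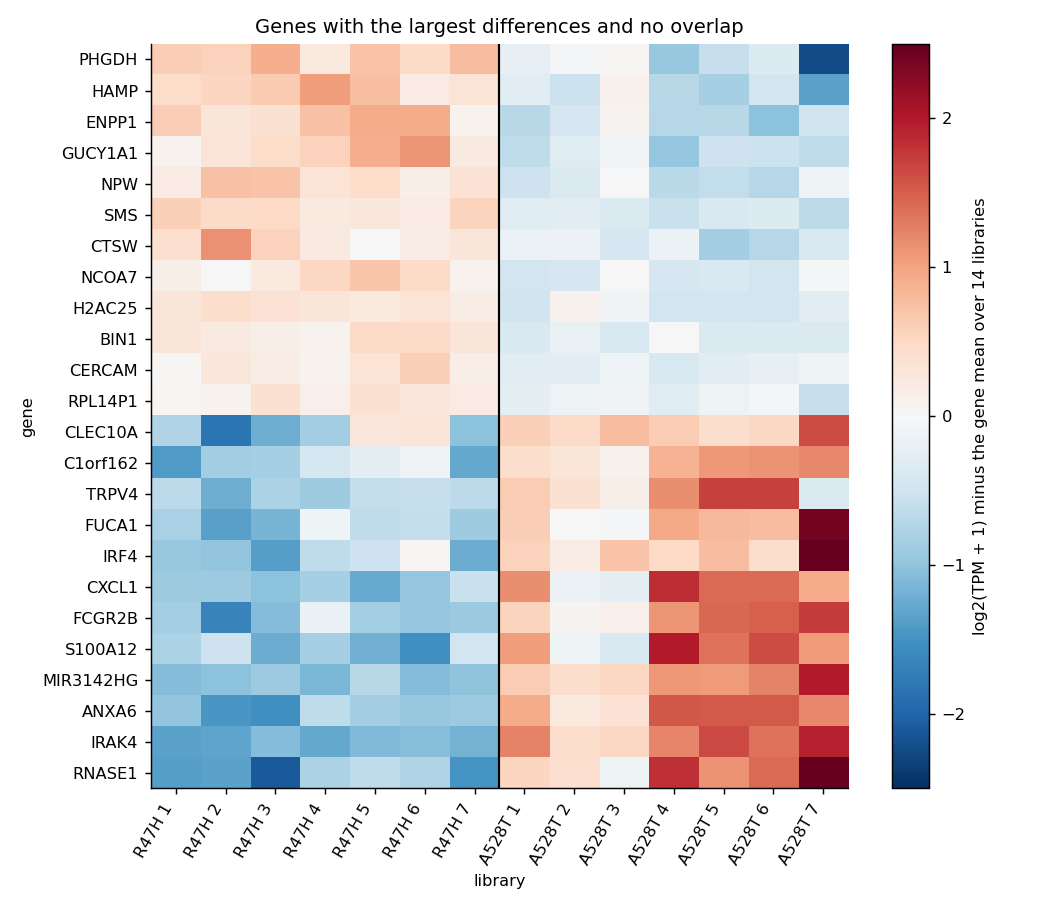
Heat map of 24 called genes (rows), the 12 largest differences each way among genes with a mean of at least 5 TPM in 1 of the lines and no overlap between them, in the 14 libraries (columns), as log2(TPM + 1) minus the mean of the gene over the 14; the colour scale saturates at its ends. In the TREM2-R47H columns the 12 upper genes lie above their mean and the 12 lower genes below it, except CLEC10A in libraries 5 and 6 and IRF4 in library 6, and SORL1-A528T library 7 is the most extreme column for IRF4 and FUCA1.

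TREM2 signals through TYROBP to SYK and is restrained by phosphatases and inhibitory receptors. Of the 28 kept genes of the TYROBP signalling list, 5 were called lower in TREM2-R47H and none higher, against 3.6 percent and 1.03 percent of all kept genes, with a median of -0.20. PTPN6, the phosphatase SHP-1, lay between 164 and 231 TPM (median 173) in TREM2-R47H and between 239.9 and 289.6 TPM (median 258) in SORL1-A528T, without overlap (-0.48 ± 0.08, SE; limma adjusted p = 0.00596). LYN, a Src-family kinase that phosphorylates such receptors, differed by -0.44 ± 0.11 (SE; limma adjusted p = 0.0304), and the adaptor GRB2 by -0.28 ± 0.07 (SE; limma adjusted p = 0.0347). SIRPA and SIRPB1, an inhibitory and an activating member of the SIRP receptor family, differed by -0.30 and -0.79 (limma adjusted p = 0.0408 and 0.0374). Calls were lost in 12 of 30 alternative fits for LYN, 18 for GRB2 and 14 for SIRPB1, with adjusted p up to 0.165. The count of lower members ranged from 1 to 7 when single libraries were left out. It was 1 to 3 without any single one of TREM2-R47H libraries 1, 2, 3, 5, 6 and 7 or SORL1-A528T libraries 1, 4, 5 and 6, and it was 2 with median-ratio scaling and 1 with quantile normalization.

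Genes that microglia raise around plaques leaned the same way. In the disease-associated microglia list, 4 of 28 kept genes were called lower, against 3.6 percent of all kept genes, and none higher (median -0.27): the cathepsins CTSB and CTSD, the scavenger receptor MSR1 and the ferritin heavy chain FTH1. That count was 2 without any single one of TREM2-R47H libraries 1, 3, 5, 6 and 7 or SORL1-A528T libraries 1, 2 and 4, and 7 without TREM2-R47H library 4. Each of the 4 called genes is counted again below, in the lysosomal, phagocytosis or iron list. MSR1 lay between 7.8 and 21.4 TPM (median 11.7) in TREM2-R47H and between 15.0 and 31.0 TPM (median 23.7) in SORL1-A528T (-0.85 ± 0.20, SE; limma adjusted p = 0.0304), and its call was lost in 14 of 30 alternative fits (adjusted p up to 0.43). In the homeostatic list, 2 of 23 kept genes were lower, C1QB and C1QC, and BIN1 was higher (median -0.21), against 3.6 percent and 1.03 percent of all kept genes. C1QB and C1QC are counted in the phagocytosis list too. BIN1, a membrane-curving protein and Alzheimer risk gene, lay between 44.6 and 58.7 TPM (median 51.4) in TREM2-R47H and between 31.3 and 42.2 TPM (median 32.5) in SORL1-A528T, without overlap (0.57 ± 0.08, SE; limma adjusted p = 0.00216). None of the 18 kept microglia markers was called with limma (median -0.21), 15 of their differences were below 0, and at an unadjusted p under 0.05 there were 7 lower and 1 higher. That count depended on the fit: 4 were called lower without TREM2-R47H library 4, 2 without SORL1-A528T library 3, 1 without SORL1-A528T library 6, and with limma arrayWeights 5 were lower and 1 higher.

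Phagocytic receptors and complement genes lay lower in TREM2-R47H. Of 30 kept genes of the phagocytosis and complement list, 9 were called lower and none higher, against 3.6 percent and 1.03 percent of all kept genes. The median was -0.49, and 29 of the 30 differences were below 0, against 7780 of the 13365 kept genes. These counts were taken without further scaling. The list median was -0.43 with median-ratio scaling and -0.55 with quantile normalization. The 9 were C1QB, C1QC, VSIG4, FCGR2B, FCGR3A, FCER1G, CD36, MSR1 and STAB1. Between 5 and 13 were called when single libraries were left out: 5 without TREM2-R47H library 1, 2, 3 or 7 or SORL1-A528T library 4, 8 without SORL1-A528T library 7 and 4 in libraries 4 to 6 alone.

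VSIG4, the complement receptor of tissue macrophages, lay between 143 and 276 TPM (median 179.8) in TREM2-R47H and between 299 and 542 TPM (median 379.5) in SORL1-A528T (-0.996 ± 0.15, SE; limma adjusted p = 0.00268). CD36, a scavenger receptor for oxidised lipids, lay between 31.1 and 62.8 TPM (median 49.6) in TREM2-R47H and between 70.7 and 248 TPM (median 86.9) in SORL1-A528T (-1.26 ± 0.25, SE; limma adjusted p = 0.0111). FCER1G, the signalling gamma chain of Fc receptors and a relative of TYROBP, lay between 626 and 774 TPM (median 701) in TREM2-R47H and between 806 and 1089 TPM (median 952) in SORL1-A528T (-0.45 ± 0.07, SE; limma adjusted p = 0.00272). In these 3 genes all TREM2-R47H libraries lay below all SORL1-A528T libraries, although the TREM2-R47H maximum and the SORL1-A528T minimum of CD36 were close.

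FCGR2B, the inhibitory IgG receptor, lay between 5.51 and 17.6 TPM (median 9.96) in TREM2-R47H and between 20.7 and 69.2 TPM (median 43.6) in SORL1-A528T (-1.86 ± 0.28, SE; limma adjusted p = 0.00268). FCGR2C, its near-identical neighbour on chromosome 1, differed by -2.45 (limma adjusted p = 0.0211), and FCGR3A, which has a near-identical copy too, by -1.64 ± 0.43 (SE; limma adjusted p = 0.0417). How reads were divided among such copies is uncertain. FCGR2A, in the same cluster, had -1.15 and was not called (limma adjusted p = 0.175). FCGRT, the neonatal Fc receptor that recycles IgG and was chosen after its values were seen, lay between 164 and 253 TPM (median 198) in TREM2-R47H and between 286 and 573 TPM (median 371) in SORL1-A528T (-0.94 ± 0.14, SE; limma adjusted p = 0.00244). C1QB, a chain of the complement initiator C1q, lay between 859 and 1559 TPM (median 1010) in TREM2-R47H and between 1271 and 1870 TPM (median 1467) in SORL1-A528T (-0.55 ± 0.13, SE; limma adjusted p = 0.0261), and C1QC differed by -0.49 ± 0.11 (SE; limma adjusted p = 0.0267). C1QA, the remaining chain, had -0.69 and missed the threshold (limma adjusted p = 0.072). Calls were lost in 10 of 30 alternative fits for C1QB, 11 for C1QC and 19 for FCGR3A, with adjusted p up to 0.248.

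Lysosomal genes were the list with the most lower calls. Of 39 kept genes, 13 were called lower in TREM2-R47H and none higher (3.6 percent of all kept genes were lower), the median was -0.31, and 38 of 39 differences were below 0. CTSB, the cysteine protease cathepsin B, lay between 825 and 1393 TPM (median 923) in TREM2-R47H and between 1474 and 2189 TPM (median 1737) in SORL1-A528T. Its ranges did not overlap and the difference was -0.86 ± 0.11 (SE; limma adjusted p = 0.00144). CTSD, the aspartic protease cathepsin D, lay between 1303 and 1919 TPM (median 1619) in TREM2-R47H and between 1921 and 2853 TPM (median 2204) in SORL1-A528T, with the nearest libraries of the lines almost touching (-0.54 ± 0.11, SE; limma adjusted p = 0.0117). ATP6V0D2, a subunit of the proton pump that acidifies lysosomes, lay between 4.73 and 13.3 TPM (median 9.26) in TREM2-R47H and between 16.6 and 34.2 TPM (median 17.7) in SORL1-A528T (-1.20 ± 0.21, SE; limma adjusted p = 0.00727).

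CTSK, a collagen-degrading cathepsin, differed by -0.95 ± 0.15 (SE; limma adjusted p = 0.00307), and its TREM2-R47H libraries were all below the lowest SORL1-A528T library. TFE3, a transcription factor of lysosomal genes, lay between 81.2 and 95.5 TPM (median 89.3) in TREM2-R47H and between 104 and 118 TPM (median 109) in SORL1-A528T (-0.32 ± 0.05, SE; limma adjusted p = 0.00345). Both lines lay above the WT range of 61.5 to 70.8 TPM for TFE3. The remaining called members were CTSA, GUSB, LAMP1, SMPD1, GRN, MCOLN1, ATP6V0D1 and ATP6V1H, with differences from -0.29 to -0.56. Calls of LAMP1, SMPD1 and MCOLN1 were lost in 16, 10 and 1 of 30 alternative fits. GRN, which encodes progranulin, lay between 447 and 751 TPM (median 532) in TREM2-R47H and between 632 and 1152 TPM (median 771) in SORL1-A528T (-0.56 ± 0.13, SE; limma adjusted p = 0.0282), and its call was lost in 12 of 30 alternative fits (adjusted p up to 0.183). The lysosomal count was 7 without TREM2-R47H library 3 or SORL1-A528T library 1, 8 without TREM2-R47H library 1, 2 or 7 or SORL1-A528T library 4, 22 without TREM2-R47H library 4, 10 without SORL1-A528T library 7, 6 with quantile normalization, and 3 in libraries 4 to 6 alone. The list median kept its sign in each of these, at -0.20 in libraries 4 to 6 and -0.27 with quantile normalization.

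CST3, the secreted cathepsin inhibitor cystatin C, had the largest drop in mean TPM of the called genes without overlap. It lay between 1179 and 1831 TPM (median 1279) in TREM2-R47H and between 2139 and 4579 TPM (median 2625) in SORL1-A528T. The lines did not overlap and the difference was -0.93 ± 0.17 (SE; limma adjusted p = 0.00735). IFI30, a lysosomal thiol reductase that prepares antigens, lay between 529 and 1089 TPM (median 1006) in TREM2-R47H and between 1110 and 1607 TPM (median 1368) in SORL1-A528T (-0.65 ± 0.17, SE; limma adjusted p = 0.047). That call was lost in 20 of 30 alternative fits (adjusted p up to 0.12).

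SORL1 belongs to the sorting machinery of endosomes. In the retromer and endosomal sorting list, 3 of 38 kept genes were called lower, against 3.6 percent of all kept genes, and none higher (median -0.09): the endosomal GTPases RAB5C and RAB7A and the WASH complex subunit WASHC2C. RAB5C lay between 227 and 259 TPM (median 243) in TREM2-R47H and between 256 and 297 TPM (median 288) in SORL1-A528T (-0.24 ± 0.05, SE; limma adjusted p = 0.0173), and RAB7A lay between 199 and 227 TPM (median 214) in TREM2-R47H and between 234 and 273 TPM (median 247) in SORL1-A528T (-0.22 ± 0.05, SE; limma adjusted p = 0.0237). The lines did not overlap for RAB7A, and 1 TREM2-R47H library lay inside the SORL1-A528T range for RAB5C. WASHC2C, which has a near-identical paralog, differed by -0.31 ± 0.08 (SE; limma adjusted p = 0.0491) and lost its call in 21 of 30 alternative fits. RAB5C lost its call in 4 and RAB7A in 9. With median-ratio scaling 0 members of the list were called, and with quantile normalization 1, with a median of -0.03 in both. In the amyloid precursor processing list none of 15 kept genes was called with limma, and 5 were lower at an unadjusted p under 0.05. Of their differences, 13 were below 0, with a median of -0.17.

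Few genes of lipid transport were called. Of the 22 kept apolipoprotein and sterol efflux genes, 2 were called lower and none higher (median -0.12), against 3.6 percent and 1.03 percent of all kept genes. PLTP, which transfers phospholipids between lipoproteins, lay between 22.1 and 57.9 TPM (median 41.2) in TREM2-R47H and between 45.8 and 121 TPM (median 85.6) in SORL1-A528T (-1.11 ± 0.24, SE; limma adjusted p = 0.0195). RXRA, the partner of the liver X receptors, lay between 70.9 and 97.2 TPM (median 84.4) in TREM2-R47H and between 81.6 and 162 TPM (median 135) in SORL1-A528T (-0.67 ± 0.13, SE; limma adjusted p = 0.012), and its lowest SORL1-A528T value was that of library 7. APOE, the most abundant member, was not called, as given above.

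The values of cholesterol synthesis genes depended on which libraries were compared. Of 25 kept genes, 23 had a difference above 0 (median 0.33), but none was called higher and 1, INSIG2, was called lower. SQLE, squalene epoxidase, lay between 54.3 and 92.2 TPM (median 74.8) in TREM2-R47H and between 29.3 and 68.1 TPM (median 51.8) in SORL1-A528T (0.51 ± 0.17, SE; limma adjusted p = 0.108), and INSIG1, a sterol-sensing brake on the pathway, lay between 116 and 199 TPM (median 168) in TREM2-R47H and between 53.2 and 169.6 TPM (median 89.9) in SORL1-A528T (0.70 ± 0.23, SE; limma adjusted p = 0.101). Both were chosen after their values were seen. In libraries 1 to 3 alone, 17 genes of the list were called higher and 1 lower, with a median of 0.50, whereas in libraries 4 to 6 none was called and the median was -0.18. SQLE went from 0.80 to -0.09 and INSIG1 from 1.16 to -0.13 between those sets. INSIG2, a relative of INSIG1, differed by -0.45 ± 0.11 (SE; limma adjusted p = 0.0343), and its call was lost in 14 of 30 alternative fits. The difference between the sets of libraries was not tested, and these sets were chosen after the data were seen.

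Inflammatory genes included several with large differences at modest levels. In the cytokine and NF-kB target list, 3 of 22 kept genes were called lower and none higher (median -0.22), against 3.6 percent and 1.03 percent of all kept genes. CXCL1, a neutrophil-attracting chemokine, lay between 0.27 and 1.06 TPM (median 0.62) in TREM2-R47H and between 1.59 and 9.84 TPM (median 5.8) in SORL1-A528T (-1.83 ± 0.29, SE; limma adjusted p = 0.00307). TNF, the cytokine tumour necrosis factor, lay between 3.82 and 5.97 TPM (median 5.12) in TREM2-R47H and between 4.57 and 23.8 TPM (median 11.0) in SORL1-A528T (-1.20 ± 0.27, SE; limma adjusted p = 0.022), and the lowest SORL1-A528T library fell inside the TREM2-R47H range. NFKBIZ, an inducible regulator of NF-kB, lay between 8.12 and 17.2 TPM (median 13.4) in TREM2-R47H and between 15.9 and 41.3 TPM (median 32.6) in SORL1-A528T (-1.12 ± 0.21, SE; limma adjusted p = 0.00977), with a small overlap.

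None of the 29 kept interferon response genes was called in either direction with limma (median 0.03), nor had any an unadjusted p under 0.05. That median was -0.36 without TREM2-R47H library 4, when 1 gene was called lower. In the MHC class II list all 17 kept genes had a difference below 0 (median -0.40), but only IFI30 was called. Without SORL1-A528T library 7 the median was -0.20 with no call, and in libraries 4 to 6 it was 0.19 with 1 gene called higher. Immediate early genes were mixed, with EGR3 higher (0.64 ± 0.15, SE; limma adjusted p = 0.0231), ZFP36 and KLF6 lower (-0.55 and -0.25), and a median of 0.02 over 23 genes. The calls of ZFP36 and KLF6 were lost in 16 and 21 of 30 alternative fits, and that of EGR3 in 5.

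NCF1 and NCF4, which encode subunits of the phagocyte NADPH oxidase, the enzyme that makes superoxide, were both lower in TREM2-R47H. NCF1, the organiser subunit p47phox, lay between 78.8 and 135 TPM (median 111) in TREM2-R47H and between 192 and 342 TPM (median 259.5) in SORL1-A528T. TREM2-R47H libraries were all under the lowest SORL1-A528T library, with a difference of -1.22 ± 0.14 (SE; limma adjusted p = 5.5e-04). The near-identical copies NCF1B and NCF1C were lower by a similar size (-1.28 and -1.37, limma adjusted p = 0.0022 and 0.00151), and how reads were split among the 3 is uncertain. NCF4, the subunit p40phox, lay between 64.1 and 85.1 TPM (median 73.3) in TREM2-R47H and between 95.1 and 201 TPM (median 128) in SORL1-A528T (-0.82 ± 0.13, SE; limma adjusted p = 0.00286).

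CYBA, the smaller membrane subunit of the oxidase, had -0.29 ± 0.06 (SE; limma adjusted p = 0.0106), while CYBB, the catalytic one, lay between 653 and 1119 TPM (median 751) in TREM2-R47H and between 746 and 1119 TPM (median 844) in SORL1-A528T and was not called (-0.13 ± 0.14, SE; limma adjusted p = 0.635). Genes of iron storage and haem breakdown also lay lower in TREM2-R47H. HMOX1, haem oxygenase, lay between 84.9 and 154 TPM (median 95.2) in TREM2-R47H and between 157 and 459 TPM (median 194) in SORL1-A528T, without overlap (-1.02 ± 0.21, SE; limma adjusted p = 0.0161). The ferritin chains FTL and FTH1 differed by -0.51 and -0.56 (limma adjusted p = 0.0313 and 0.0354), and FTL was among the most abundant RNAs, at 8642 to 13966 TPM in TREM2-R47H and 13762 to 20533 TPM in SORL1-A528T. HAMP, above, was the only higher member. In the antioxidant and iron list, which holds all of these but NCF1B and NCF1C, 9 of 30 kept genes were called lower and 1 higher (median -0.30), against 3.6 percent and 1.03 percent of all kept genes. The ferritin calls were lost in 13 (FTL) and 16 (FTH1) of 30 alternative fits, and 4 members were called lower with median-ratio scaling and 5 without TREM2-R47H library 3 or 5 or SORL1-A528T library 1 or 4.

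Most ribosomal protein genes on the list were higher in TREM2-R47H. Of 31 kept genes, 18 were called higher and none lower (1.03 percent of all kept genes were higher), all 31 differences were above 0, and the median was 0.27. RPLP0 lay between 2266 and 2596 TPM (median 2430) in TREM2-R47H and between 1494 and 2252 TPM (median 1962) in SORL1-A528T (0.35 ± 0.08, SE; limma adjusted p = 0.0174), and RPL7 and RPS6 differed by 0.36 and 0.33 (limma adjusted p = 0.0144 and 0.0173). Each of these 3 had no overlap, with nearest libraries close together. RPL41, RPL37A, RPS29 and RPS18 were among the largest gains in TPM, for example between 3656 and 4273 TPM (median 3897) in TREM2-R47H and between 2728 and 3583 TPM (median 3300) in SORL1-A528T for RPL37A (0.29 ± 0.06, SE; limma adjusted p = 0.0181). The list count was 24 with median-ratio scaling and 1 with quantile normalization, where the median was 0.16. It was 5 without TREM2-R47H library 3 or SORL1-A528T library 4, 7 to 11 without TREM2-R47H library 2, 5, 6 or 7 or SORL1-A528T library 1, 24 without TREM2-R47H library 4, 17 without SORL1-A528T library 7 and 2 in each of libraries 1 to 3 and 4 to 6. The 31 listed ribosomal genes alone took 70040 to 84300 TPM of the total in TREM2-R47H and 56130 to 70370 TPM in SORL1-A528T. The share of all ribosomal protein genes was not summed. TPM is a share of the whole, so the counts of lower genes are to be read with the scaled counts given above.

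Other lists held few calls, and among all kept genes 1.03 percent were called higher and 3.6 percent lower. The respiratory chain list had none of 28 in either direction with limma (median 0.04), also at an unadjusted p under 0.05. Glycolysis had PFKP higher (0.67 ± 0.18, SE; limma adjusted p = 0.0411) among 27, the cell cycle list CCND3 lower (-0.73 ± 0.19, SE; limma adjusted p = 0.0373) among 28, and the unfolded protein list HERPUD1 lower (-0.64 ± 0.15, SE; limma adjusted p = 0.0268) among 25. Actin genes had MYL6 and MYH9 lower (-0.29 and -0.18) and SCIN, a gelsolin relative, higher (0.95 ± 0.25, SE; limma adjusted p = 0.047) among 29. Matrix and adhesion genes had the collagens COL4A1 and COL4A2 higher (0.84 and 0.84) and the integrins ITGB7 and ITGA4 lower (-0.60 and -0.51) among 29. Calls of COL4A2, PFKP, CCND3, MYH9 and SCIN were lost in 16, 14, 16, 16 and 19 of 30 alternative fits. Those of ITGA4, HERPUD1, MYL6 and ITGB7 were lost in 14, 9, 7 and 1 of 30. That of COL4A1 was lost in 21 of the 29 fits that kept it. Of 18 purinergic and migration receptors, P2RY6, a receptor that triggers microglial uptake, lay between 35.4 and 52.8 TPM (median 45.3) in TREM2-R47H and between 62.3 and 92.5 TPM (median 73.1) in SORL1-A528T (-0.71 ± 0.11, SE; limma adjusted p = 0.00302), and ADORA3 and CMKLR1 were also lower (-0.68 and -0.81). The call of CMKLR1 was lost in 17 of 30 alternative fits and that of ADORA3 in 1.

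**Figure D5:**
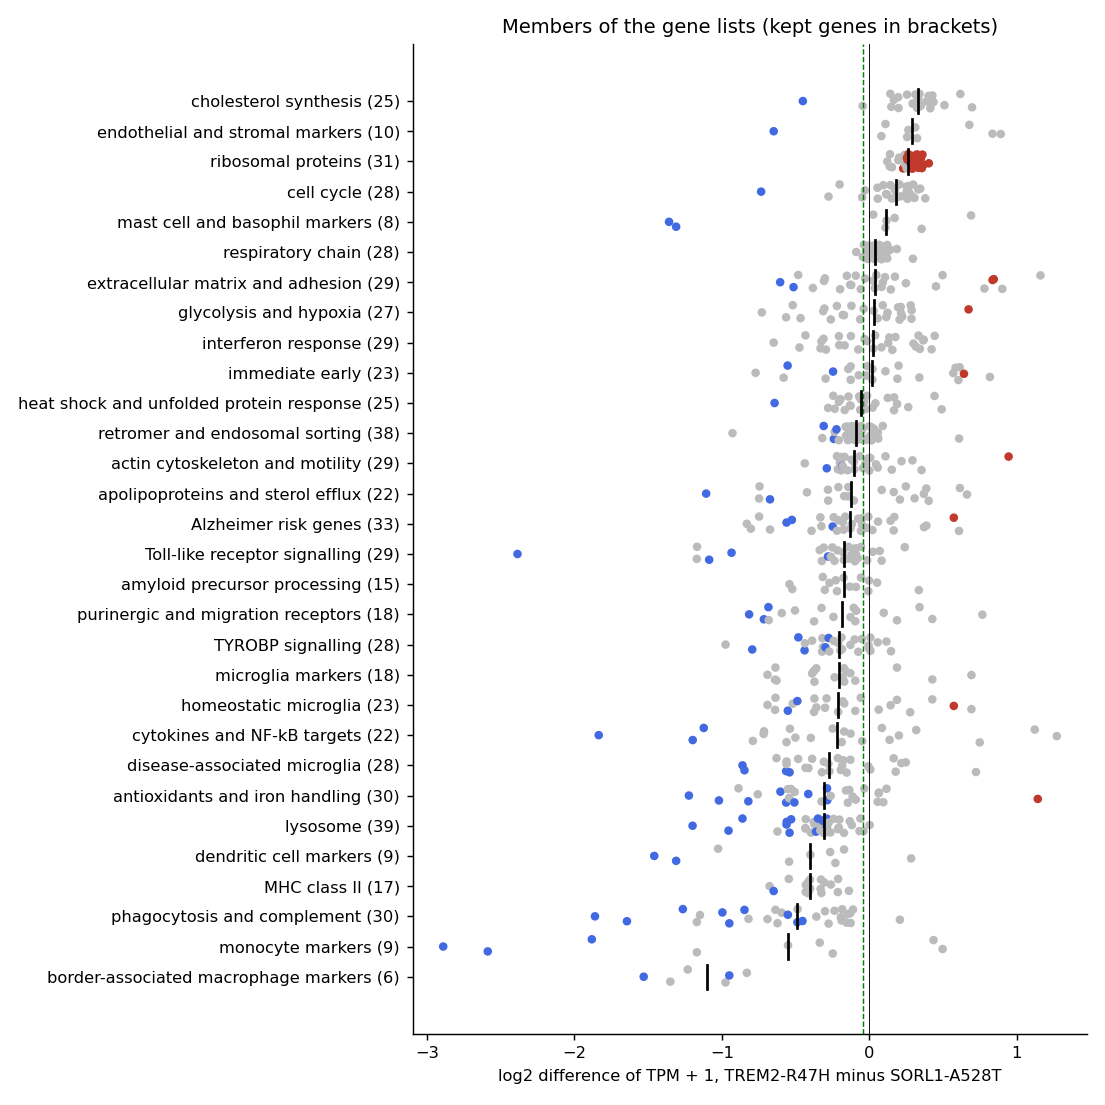
Difference of each kept gene on the log2(TPM + 1) scale, TREM2-R47H minus SORL1-A528T, by gene list (red, called higher; blue, called lower; grey, not called; black bar, list median; dashed green line, median of all kept genes at -0.04). The listed ribosomal genes lie wholly to the right of 0, and the listed lysosomal and phagocytic genes almost wholly to the left.

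Genes of Alzheimer risk loci were mostly not called. Of 33 kept genes of that list, BIN1 was higher, ABI3, GRN and SCIMP were lower, and the median was -0.13. Among all kept genes 1.03 percent were called higher and 3.6 percent lower. ABI3, an actin regulator of microglia, lay between 187 and 207 TPM (median 198) in TREM2-R47H and between 220.3 and 244 TPM (median 239) in SORL1-A528T, without overlap (-0.25 ± 0.05, SE; limma adjusted p = 0.0103). SCIMP, an adaptor of MHC class II and Toll-like receptor signalling, lay between 40.04 and 70.8 TPM (median 55.1) in TREM2-R47H and between 65.0 and 96.5 TPM (median 84.0) in SORL1-A528T (-0.52 ± 0.13, SE; limma adjusted p = 0.0364), and its call was lost in 13 of 30 alternative fits. TREM2, SORL1 and APOE, which are also on the list, were not called over all genes.

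Some markers of other myeloid cells were lower in TREM2-R47H as well, where 3.6 percent of all kept genes were called lower. In bulk RNA, fewer cells of a type and less RNA per cell cannot be told apart. Of 9 kept monocyte markers, 3 were lower in TREM2-R47H, S100A8, S100A9 and S100A12 (calgranulins; median of the list -0.55), and the 14 listed markers summed to 185.3 to 528.4 TPM in TREM2-R47H and 265 to 1757 TPM in SORL1-A528T. S100A9 lay between 16.0 and 107 TPM (median 23.3) in TREM2-R47H and between 52.8 and 928 TPM (median 169.8) in SORL1-A528T (-2.89 ± 0.62, SE; limma adjusted p = 0.0173), with 1 TREM2-R47H library inside the SORL1-A528T range. The S100A8 call was lost in 10 of 30 alternative fits and that of S100A9 in 2. CCR2, CLEC4E and VNN2 of this list were under 1 TPM in all 14 libraries.

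Of 6 kept markers of border-associated macrophages, CD163 and STAB1 were lower and none higher, and all 6 differences were below 0 (median -1.10). For this and the next lists, 3.6 percent of all kept genes were called lower. CD163, the haemoglobin scavenger receptor, lay between 16.1 and 65.2 TPM (median 36.7) in TREM2-R47H and between 58.2 and 153 TPM (median 87.4) in SORL1-A528T (-1.53 ± 0.30, SE; limma adjusted p = 0.0112). The 11 listed markers summed to 223 to 523 TPM in TREM2-R47H and 415 to 1076 TPM in SORL1-A528T, and F13A1, CD209, PF4 and CCL18 were under 1 TPM in all 14. Of 9 kept dendritic cell markers, CLEC10A and FCER1A were lower (median -0.40, sums of 242 to 518 and 322 to 758 TPM), with FLT3, CLEC9A and XCR1 under 1 TPM. CLEC10A, a lectin of dendritic cells and macrophages, lay between 7.43 and 36.2 TPM (median 15.3) in TREM2-R47H and between 39.4 and 91.9 TPM (median 44.3) in SORL1-A528T (-1.46 ± 0.30, SE; limma adjusted p = 0.0156). Of 8 kept mast cell markers, KIT and FCER1A were lower, whereas the other 6 differences were above 0 and not called (median 0.11). TPSB2, MS4A2, EPX and PRG2 were under 1 TPM. The calls of KIT and FCER1A were lost in 12 and 17 of 29 alternative fits, and with a pseudocount of 5 TPM no mast cell marker was called.

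Of 10 kept endothelial and stromal markers, PECAM1, which macrophages also express, was lower and none was higher (median 0.29), and CDH5, KDR and CLDN5 were under 1 TPM. The PECAM1 call was lost in 17 of 30 alternative fits. A fit with the score of these markers as a covariate called 700 genes in place of 618. The neutrophil list had no kept gene, 1 of 2 kept blood progenitor markers (KIT) was lower, and none of the kept pluripotency, neural, epithelial, lymphoid or erythroid markers was called with limma; at an unadjusted p under 0.05 there were 2 lymphoid markers, 1 in each direction, and 1 neural marker, higher. Several of these markers are also expressed by microglia-like cells, and the part of monocyte, border-associated and dendritic markers in the lysosomal and phagocytic differences was not tested.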

How the data were processed

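RNA libraries of TREM2-R47H (7) and SORL1-A528T (7) microglia-like cells were used as the authors deposited them, as TPM per gene. The submitters' processing notes name cutadapt 1.18, STAR 2.7 and RSEM 1.3.1. Which genome build and annotation they used is not given in the sources that were read. Columns summed to between 999999.15 and 1000000.76, so depth per library is unknown. Symbols and GENCODE 29 positions were matched by Ensembl ID for 94.2% of genes. Genes that reached 1 TPM in 7 or more of the 14 libraries entered the fit, made on log2(TPM + 1) by limma 3.58.1 under R 4.3.3 (trended, robust variance, two-sided, Benjamini-Hochberg over all kept genes). The procedure was also run on simulated data with independent libraries, which cannot show how closely alike libraries affect the calls. The pseudocount of 1 TPM understates changes of low genes. Directional libraries were made, but the strand setting of the counting is not given here.

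Genes named are the edited genes with APOE and TYROBP, the 12 largest non-overlapping called differences each way with at least 5 TPM, up to 4 called members of each list by adjusted p, and the 6 largest in TPM each way; others are marked as chosen after their values were seen or are counted members of a list. Members and lists were chosen with earlier results of these data known. XIST, Y-linked genes and some genes the rule selects are not reported here. Alternatives were a pseudocount of 0.1 or 5 TPM, a filter of 5 TPM or none, both scalings, a fit of all 40 libraries, a replicate block, limma arrayWeights, the stromal score as a covariate, leaving out each library, and 6 sets of libraries chosen after the data were seen.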

Additional observations from a re-analysis of the deposited data

Results flagged for a closer look

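For 21 of 238 sets of 7 libraries (119 named genes in each line), the highest or lowest library was separated from its nearest neighbour by a larger share of the range than Dixon's 95 percent critical value for 7. Chance flags about 1 in 20 sets, and the sets are not independent. Values below are that gap as a share of the range. In TREM2-R47H, library 4 was the highest for TREM2 (0.651; 646 TPM), SORL1 (0.696; 80.2 TPM), C1QB (0.688), TLR2 (0.607), PECAM1 (0.686), FCGR3A (0.726), MCOLN1 (0.604) and CD14 (0.703). Library 2 was the highest for COL4A2 (0.724; 12.8 TPM) and the lowest for CTSK (0.78; 1.6 TPM) and ITGA4 (0.6; 30.8 TPM). Library 3 was the lowest for KLF6 (0.6; 24.6 TPM), and library 5 the highest for PUS7L (0.679), at only 0.13 TPM.

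In SORL1-A528T every such value belonged to library 7. It was the highest for IRF4 (0.748; 43.8 TPM), FUCA1 (0.597; 585 TPM), CLEC10A (0.705; 91.9 TPM), FCER1A (0.661; 13 TPM) and HMOX1 (0.604; 459 TPM). It was the lowest for CD33 (0.851; 25.1 TPM), RXRA (0.683; 81.6 TPM) and CCND3 (0.593; 33.2 TPM). TREM2-R47H library 4 was the highest in 8 of the 13 sets of its line, and no library of TREM2-R47H was the lowest for more than 2 genes.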

How the results depend on the processing

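The count of 618 called genes (137 higher, 481 lower) stayed within 1.5 times with pseudocounts of 0.1 and 5 TPM, a filter of 5 TPM, the stromal covariate, a fit of all 40 libraries and without SORL1-A528T library 7. It was 279 with no filter (51 higher, 228 lower), where 30864 genes were tested. With quantile normalization it was 390 (263 lower), with median-ratio scaling 297 were lower, and with limma arrayWeights it was 1757 (388 higher, 1369 lower). Leaving out single libraries gave 304 to 884 calls (58 to 188 higher, 246 to 696 lower). The count moved by more than 1.5 times without TREM2-R47H library 1 (400.0), 2 (366), 3 (304) or 7 (321) and without SORL1-A528T library 1 (374), 4 (322) or 5 (404). The cause was not tested.

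The labels do not say whether library numbers pair the lines, and the data gave no uniform answer: residuals of same-numbered libraries correlated at 0.22 to 0.41 for numbers 1 to 6 and at -0.39 for number 7, and 0 of 7 TREM2-R47H and 4 of 7 SORL1-A528T libraries correlated best with their own number. With the replicate block 969 genes were called (231 higher, 738 lower), among them 6 of the 18 microglia markers, all lower, where none was called without it. Of sets chosen after the data were seen, libraries 1 to 6 gave 90 higher calls of 420, and with the block 1454 (349 higher, 1105 lower). Leaving out TREM2-R47H library 4 and SORL1-A528T library 7 together gave 979 (774 lower). Libraries 1 to 3 gave 951 (262 higher), libraries 4 to 6 405 (268 lower), and averaging libraries 5 and 6 of each line 255 (40 higher, 215 lower). Direction reversed in uncalled genes only: APOE was -0.0030 in libraries 1 to 3, and in libraries 4 to 6 TREM2 was 0.19, INSIG1 -0.13 and SQLE -0.09. Of the results of named genes, 2901 kept their side of the threshold, 590 lost a call and 64 gained one. Depth cannot be read from TPM, so what it limits is unknown.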

Other observations

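Some called genes of the Fc receptor, lectin and annexin loci had called neighbours. In the Fc receptor cluster of chromosome 1, FCGR2B (-1.86), FCGR2C (-2.45), FCGR3A (-1.64), the heat shock gene HSPA6 (-1.16), its copy HSPA7 (-2.30) and FCRLB (-0.72) were lower in TREM2-R47H. FCGR2A and FCRLA of the same cluster had -1.15 and -0.21 and were not called, and the flanking genes DUSP12 and ATF6 had -0.02 and -0.13 and were not called. HSPA6 and HSPA7 are near-identical, so the division of reads between them is uncertain. CLEC10A (-1.46) and its neighbour ASGR2 (-1.44, limma adjusted p = 0.0268), both C-type lectins on chromosome 17, were both lower, whereas SLC16A13 beside them had -0.11 and was not called. ANXA6 (-2.10) was lower with its neighbours TNIP1 (-0.34, limma adjusted p = 0.0181) and GM2A (-0.42, limma adjusted p = 0.0327), whereas CCDC69 and GPX3, also next to it, had -0.06 and -0.55 and were not called (limma adjusted p = 0.878 and 0.21). By chromosome, the share of kept genes called ran from 2.91 percent on chromosome 16 to 7.39 percent on chromosome 20.

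The S100 cluster of chromosome 1 held calls in both directions. S100A8 and S100A12 were lower by -2.59 and -1.88, while S100A6, a calcium-binding protein, was higher in TREM2-R47H (2.36 ± 0.46, SE; limma adjusted p = 0.0116), and so was S100A13 (0.79, limma adjusted p = 0.0376). S100A6 lay between 11.5 and 19.9 TPM (median 17.4) in TREM2-R47H and between 0.36 and 18.9 TPM (median 1.14) in SORL1-A528T. SORL1-A528T library 1 was at 18.9 TPM, library 2 at 4.29 TPM, and library 1 alone overlapped the TREM2-R47H range. S100A4, in the same cluster, had -0.14 and was not called (limma adjusted p = 0.527). These neighbours were chosen after their values were seen.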
